A study of Mus musculus with 12 samples.

Results

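Bone marrow-derived dendritic cells exposed to lipopolysaccharide (LPS) for 6 h were compared with cells exposed for 1 h. The comparison took the 3 arrays labelled LPS 6hr and the 3 labelled LPS 1hr, 6 of the 12 arrays of a time course that also held 24 h and unstimulated cells. In each group 1 array came from each of donors A, B and C. Mouse femur and tibia marrow, from which B and T cells had been removed, was grown in 10 ng/ml GM-CSF and 5 ng/ml IL-4 for 5 days before 100 ng/ml LPS was added. Both groups therefore carried the same cytokines and the same LPS dose and differed in hours of exposure. Cells were collected by repeated pipetting, no sort is named, and the labels used here give no strain, age or sex of the mice. Labelled RNA (Cy5, 750 ng) was hybridized with Cy3-labelled universal mouse reference RNA to 2-colour Agilent arrays, so each level below is a log2 ratio of sample to reference. Levels of different genes cannot be set against each other, because each gene's reference level differs.

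LPS is a component of the outer membrane of Gram-negative bacteria and is sensed by TLR4 together with CD14 and MD-2. MyD88 and TRIF carry the signal to NF-kB, the MAP kinases and IRF3, which switch on a first set of genes that need no new protein, among them immediate early transcription factors, cytokines and interferon beta. Secreted interferon beta binds IFNAR1 and IFNAR2, whose kinases JAK1 and TYK2 phosphorylate STAT proteins. With IRF9 these bind interferon-stimulated response elements (ISRE) in front of antiviral genes, and IRF7 amplifies the loop. The interval between 1 h and 6 h spans the handover between these gene sets, and dendritic cells also begin to mature for antigen presentation in it.

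The promoters shown here belong to genes with large changes in the interferon-response lists and in the immediate early list. Egr1 and Ier2 fell further than Maff, but their promoters are not shown. Each window runs 5′ to 3′ over 300 bases, 250 before and 50 after the start RefSeq gives (build GRCm38.p6), with matches to any of 6 motifs in capitals. The first 4 genes rose most among antiviral effectors, interferon-induced GTPases and ISG15-pathway genes. Their windows lie at chr12:26468965-26469264 on the plus strand (Cmpk2), chr12:26456403-26456702 on the minus strand (Rsad2), chr5:114896684-114896983 on the plus strand (Oasl2) and chr19:34550444-34550743 on the plus strand (Ifit2, 1 of 2 windows).
Cmpk2: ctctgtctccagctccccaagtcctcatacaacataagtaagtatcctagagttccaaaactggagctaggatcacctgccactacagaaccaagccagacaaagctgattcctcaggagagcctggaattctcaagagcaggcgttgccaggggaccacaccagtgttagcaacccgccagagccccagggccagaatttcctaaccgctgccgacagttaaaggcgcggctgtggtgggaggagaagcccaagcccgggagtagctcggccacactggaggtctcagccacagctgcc
Rsad2: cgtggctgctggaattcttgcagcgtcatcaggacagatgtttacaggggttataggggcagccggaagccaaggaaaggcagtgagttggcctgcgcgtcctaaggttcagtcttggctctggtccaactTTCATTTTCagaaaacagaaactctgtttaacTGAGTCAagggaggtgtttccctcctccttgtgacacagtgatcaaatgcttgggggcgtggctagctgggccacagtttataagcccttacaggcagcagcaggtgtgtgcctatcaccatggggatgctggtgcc
Oasl2: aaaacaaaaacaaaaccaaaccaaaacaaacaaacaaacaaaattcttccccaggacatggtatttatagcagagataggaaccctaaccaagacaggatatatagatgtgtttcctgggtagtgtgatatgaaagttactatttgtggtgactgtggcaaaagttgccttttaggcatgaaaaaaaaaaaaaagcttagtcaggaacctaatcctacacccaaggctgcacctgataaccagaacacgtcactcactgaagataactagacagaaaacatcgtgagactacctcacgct
Ifit2: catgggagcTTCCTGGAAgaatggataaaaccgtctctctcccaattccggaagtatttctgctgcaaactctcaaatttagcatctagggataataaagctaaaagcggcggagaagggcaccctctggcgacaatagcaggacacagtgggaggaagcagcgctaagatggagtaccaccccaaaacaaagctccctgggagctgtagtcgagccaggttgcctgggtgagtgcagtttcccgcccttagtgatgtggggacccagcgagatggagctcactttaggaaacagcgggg
The other 3 genes fell most among the immediate early factors apart from Egr1 and Ier2. They lie at chr4:55532426-55532725 on the minus strand (Klf4), chr15:101266596-101266895 on the plus strand (Nr4a1) and chr15:79347270-79347569 on the plus strand (Maff, 1 of 3 windows).
Klf4: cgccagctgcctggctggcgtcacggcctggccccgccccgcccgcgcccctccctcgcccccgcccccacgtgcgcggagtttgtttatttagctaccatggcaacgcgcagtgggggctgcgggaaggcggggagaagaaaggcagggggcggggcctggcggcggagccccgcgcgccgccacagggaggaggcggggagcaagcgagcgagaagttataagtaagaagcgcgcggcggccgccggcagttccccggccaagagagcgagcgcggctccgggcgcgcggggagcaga
Nr4a1: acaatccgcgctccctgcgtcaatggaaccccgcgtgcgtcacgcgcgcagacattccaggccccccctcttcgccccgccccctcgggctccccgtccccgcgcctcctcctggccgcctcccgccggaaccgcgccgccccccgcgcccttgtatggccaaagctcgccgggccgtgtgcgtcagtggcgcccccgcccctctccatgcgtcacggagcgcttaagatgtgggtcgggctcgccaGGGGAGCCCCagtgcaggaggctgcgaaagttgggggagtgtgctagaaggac
Maff: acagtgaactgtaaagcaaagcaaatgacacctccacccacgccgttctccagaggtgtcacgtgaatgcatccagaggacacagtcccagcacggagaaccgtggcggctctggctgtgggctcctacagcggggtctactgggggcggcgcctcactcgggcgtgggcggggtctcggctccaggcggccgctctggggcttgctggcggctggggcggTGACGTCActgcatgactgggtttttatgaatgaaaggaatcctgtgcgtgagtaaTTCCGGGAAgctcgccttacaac
Where a gene had several windows, the one with most kinds of motif was taken.

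The motifs were searched on both strands: the ISRE core GAAANNGAA, the STAT site GAS as TTCNNNGAA, AP-1 as TGANTCA, CRE as TGACGTCA, and the kappaB site and the CArG box by their usual consensus. The ISRE core and the GAS motif can share the letters GAA, and no match overlapped another in the windows printed. Of the 7 windows 4 held a match. In Rsad2 an ISRE core began 119 bases before the start and an AP-1 motif 87 bases before it. Maff held a CRE 29 bases before its start and a GAS match beginning at base 28 after it. Ifit2 held a GAS match 241 bases before its start and Nr4a1 a kappaB match 3 bases before its start, and the windows of Cmpk2, Oasl2 and Klf4 held none of these letters. Over the 57 windows of the tested interferon-response genes (47 of 62 genes matched the table), 32 (56.1%) held an ISRE core. The share was 17.1% (80 of 468) for genes at least 2-fold higher at 6 h and 6.98% (31 of 444) for genes at least 2-fold lower. It was 7.39% for all genes tested and 8.56% (2812 of 32851) for all windows in the table. Most tested interferon-response genes were themselves at least 2-fold higher, so those sets share windows. The CArG box was in 15.6% (5 of 32) of windows of immediate early genes, 2.7% of windows of genes at least 2-fold lower and 1.32% of windows of all genes tested. The kappaB motif was in 18.8% (6 of 32) of windows of immediate early genes and 7.02% (4 of 57) of those of tested interferon-response genes. It was in 9.62% of windows of genes at least 2-fold higher, 5.18% of those at least 2-fold lower and 5.17% of those of all genes tested. These shares are descriptions of letters in a fixed window, without a test.

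Each array held 45018 spots. In the sample channel 48.1% to 57.6% of probes were well above background on the 6 h arrays and 48.2% to 55.2% on the 1 h arrays, and no spot was saturated. Arrays of the same group correlated at 0.946 to 0.984 over the genes tested. The first principal component of the 6 arrays held 70.4% of the variance and separated the hours, with scores of -21.8 to -38.7 at 6 h and 29.9 to 33.6 at 1 h. The 6 h arrays lay on slide 3 (donors A and B) and slide 4 (donor C), and the 1 h arrays on slides 1, 2 and 3 (donors A, B and C), so only slide 3 held both hours. Values with slide as a block, and within slide 3 (2 arrays at 6 h against 1 at 1 h), are therefore given beside the results. In the dendritic cell marker list 11 of 13 genes were tested. Itgax (CD11c) averaged 4.43 at 6 h and 4.67 at 1 h, Batf3 averaged 4.16 at 6 h and 4.23 at 1 h, and H2-Ab1 averaged 4.57 at 6 h and 4.73 at 1 h. Of the 11, Irf8 and Ciita were called higher and no other was called. The mean level of the 11 was 2.43 to 2.72 over the 6 h arrays and 2.34 to 2.52 over the 1 h arrays. Clec9a and Cd209a did not pass the filter on dim probes. Some markers of other cells were also detected: 5 of 9 tested neutrophil and 6 of 8 tested macrophage or monocyte markers were above background on all 6 arrays. S100a9 averaged 6.04 at 6 h and 6.92 at 1 h, and Adgre1 (F4/80) averaged 2.81 at 6 h and 2.23 at 1 h. Neither was called, and both stood above the mean level of their list, given below. In bulk RNA, fewer cells of a type and less RNA per cell cannot be told apart.

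Of 11095 genes tested, 3124 (28.2%) passed an adjusted p of 0.05 (limma, Benjamini-Hochberg). Of these 1331 (12%) were higher and 1793 (16.2%) lower at 6 h. Changes of at least 2-fold were closer in number, with 445 genes (4.01%) higher and 385 (3.47%) lower. All 6 h arrays lay above all 1 h arrays for 1860 genes (16.8%) and below them for 2662 (24%). The median difference of all genes was -0.088, and it was 0.131 after median centring of each array in place of loess. With that scaling 1206 genes were higher and 246 lower, so 83.1% of the called genes were higher, against 42.6% in the main fit. The number of lower calls thus changed with the scaling, and the list medians below are to be read against the median of all genes. Counts of called members in every list below are to be read against 12% higher and 16.2% lower among all genes. With slide as a block 1209 genes were higher and 1521 lower, and without the 6 h array of donor A 957 were higher and 1126 lower.

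**Figure D1:**
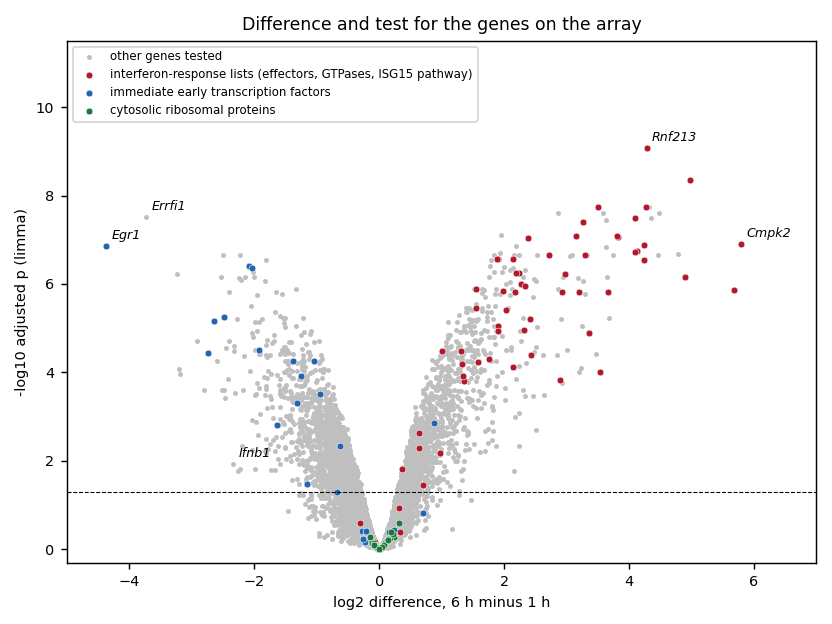
Each point is 1 of the 11095 genes tested, with the log2 difference between 6 h and 1 h on the x axis and -log10 of limma's adjusted p on the y axis, and the dashed line marks 0.05. Red points (antiviral effectors, interferon-induced GTPases and ISG15-pathway genes) lie mostly to the right, blue points (immediate early factors) mostly to the left, and green points (cytosolic ribosomal proteins) near 0 below the line.

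The largest rises were led by listed antiviral effectors, but others, such as Marco and Hamp, were in none of the interferon-response lists. Cmpk2, a mitochondrial nucleotide kinase encoded next to Rsad2, had log2 ratios of 6.06, 6.10 and 5.49 at 6 h (donors A, B and C), against -0.0031, 0.28 and 0.013 at 1 h. The groups were far apart, and the rise was 55.3-fold (log2 5.79, SE 0.32, adjusted p = 1.25e-07, limma). Rsad2 (viperin, which makes a chain-terminating nucleotide) had 7.10, 7.71 and 6.45 at 6 h, against 1.13, 2.08 and 1.02 at 1 h, a rise of 51.0-fold (log2 5.67, SE 0.44, adjusted p = 1.4e-06). Donor B was the highest of the 3 at both hours and donor C the lowest at both, and the groups did not overlap. At 0, 1, 6 and 24 h Rsad2 averaged -1.26, 1.41, 7.09 and 4.78, while Cmpk2 averaged -0.17, 0.096, 5.88 and 2.89. Rsad2 had thus moved off its unstimulated level by 1 h, whereas the 1 h mean of Cmpk2 lay within 0.3 of it.

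Oasl2, an oligoadenylate synthetase-like protein, had 3.71, 3.77 and 3.51 at 6 h, against -1.06, -1.64 and -1.21 at 1 h (log2 4.97, SE 0.18). Ifit2, which binds viral RNA, had 3.90, 4.67 and 3.58 at 6 h, against -0.74, -0.89 and -0.92 at 1 h (log2 4.90, SE 0.35). The 1 h spots of Ifit2 were well above background on 1 of 3 arrays. The next in order were Ifi209, a DNA-sensor family member (log2 4.78), Phf11a (4.47), Usp18, the protease that removes ISG15 and damps the interferon receptor (4.47), and Marco, a scavenger receptor for bacteria (4.34). Rtp4 (4.32), Hamp (4.31), Rnf213 (4.28), Phf11d (4.27), Ifit3 and Isg20 (4.23 each) and Oasl1 (4.13) completed the 15. Hamp encodes hepcidin, the hormone that blocks iron export. It was well above background on all 3 arrays at 6 h and on none at 1 h (means of 4.56 at 6 h and 0.25 at 1 h), so its 1 h level is only a bound.

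Of these 15 means, those of Marco and Hamp were higher at 24 h than at 6 h, and the others were lower. Marco averaged 1.98, 1.92, 6.27 and 7.24 at 0, 1, 6 and 24 h, and Hamp 0.02, 0.25, 4.56 and 4.85. All 15 rises were called with slide as a block (log2 4.06 to 5.87), and within slide 3 they ran from 4.08 to 6.38.

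**Figure D2:**
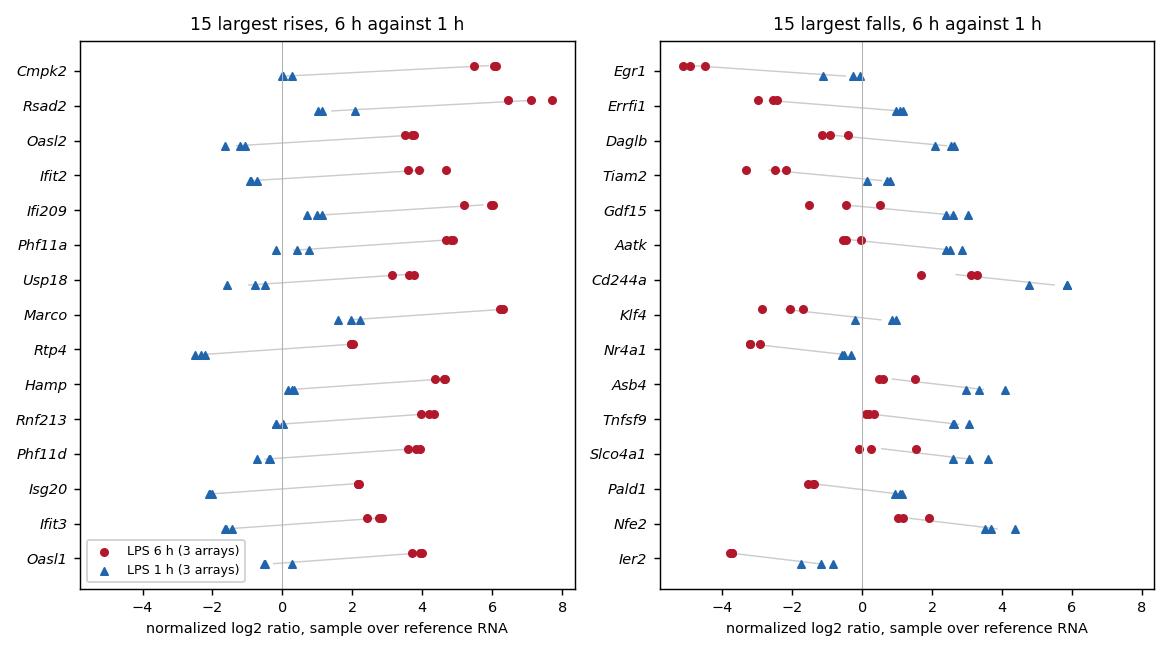
Normalized log2 ratios of sample to reference RNA (x axis) for the 15 genes with the largest rise (left) and the largest fall (right). Red circles are the 3 arrays at 6 h, drawn above the blue triangles of the 3 arrays at 1 h, and a grey line joins the means. The groups overlap in none of the 30 genes, which were chosen for their large differences, so this is no separate support. Among all genes tested, all 6 h arrays lay above all 1 h arrays for 16.8% and below them for 24%. Positions on the axis cannot be compared between genes.

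Interferon ligands were lower at 6 h, while Ifnar1 and several STATs and IRFs that act downstream were higher. Ifnb1, which encodes interferon beta, had 4.21, 4.55 and 2.33 at 6 h, against 5.47, 7.46 and 5.20 at 1 h. Donor B was highest at both hours and donor C lowest at both, and no 6 h array reached the 1 h arrays. The fall was 5.08-fold (log2 -2.35, SE 0.61, adjusted p = 0.012, limma), and it was not called with slide as a block (log2 -2.18, adjusted p = 0.0524) or on the scanner software's processed signals (log2 -1.48, adjusted p = 0.0863). Within slide 3 the difference was -0.82. Over 0, 1, 6 and 24 h Ifnb1 averaged 0.06, 6.04, 3.69 and 1.93, so the level at 6 h still lay above that of unstimulated cells.

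Ifna4, an early interferon alpha, had 0.38, 0.45 and 0.31 at 6 h, against 2.21, 2.70 and 1.60 at 1 h (log2 -1.79, SE 0.21, adjusted p = 4.43e-05). It was above background on 1 of 3 arrays at 6 h, and its unstimulated mean was 0.17. Ifngr1, the binding chain of the interferon gamma receptor, averaged -0.22 at 6 h and 1.78 at 1 h, a 4.0-fold fall (adjusted p = 6.95e-07). Its unstimulated mean was 1.41. Of the type I receptor, Ifnar1 was higher (1.79, 1.84 and 1.66 at 6 h, against 0.67, 0.91 and 0.78 at 1 h, adjusted p = 4.36e-05). Ifnar2 differed by 0.52 (95% interval -0.12 to 1.16) and did not pass the test, but it was called with slide as a block (log2 0.92, adjusted p = 0.00389), after median centring, on the Cy5 channel alone and on its second brightest probe.

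**Figure D3:**
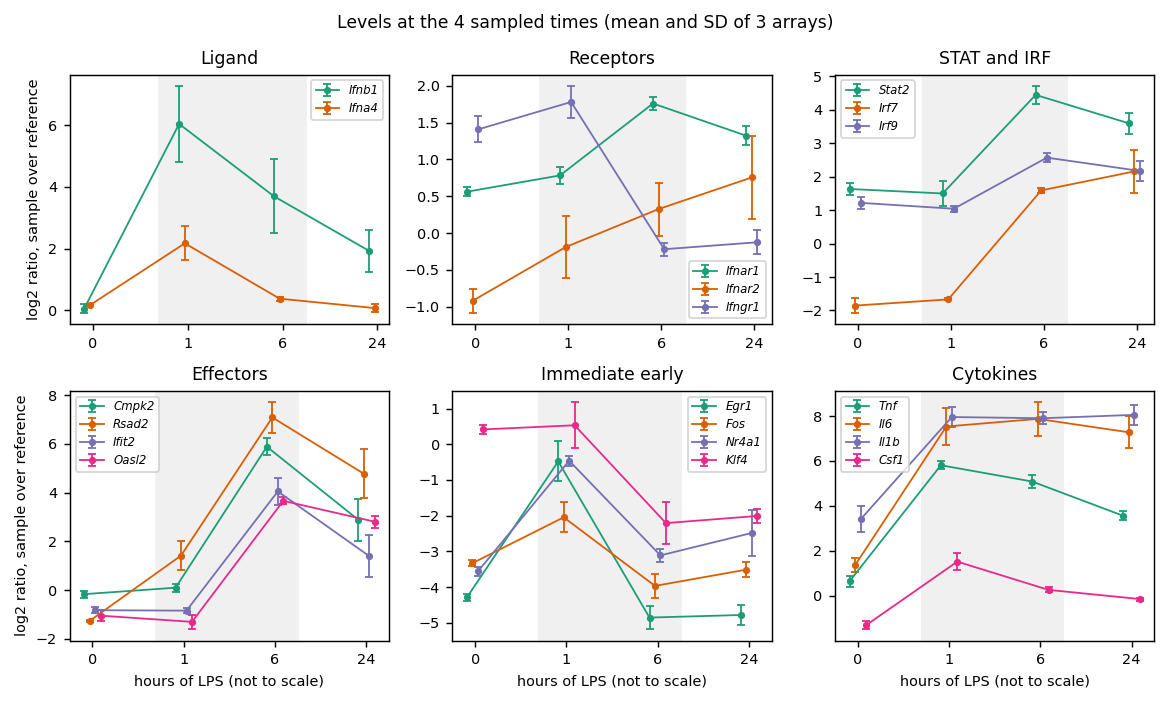
Mean log2 ratio of sample to reference RNA (y axis) with the SD of 3 arrays at 0, 1, 6 and 24 h of LPS (x axis, not to scale), for 6 sets of genes, with the compared hours shaded. Ifnb1 and the immediate early genes Egr1, Fos and Nr4a1 are at their highest mean at 1 h, the STAT, IRF and effector genes are higher at 6 h than at 1 h, and Il6 and Il1b are nearly level between these hours.

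Downstream, Irf7 had 1.51, 1.66 and 1.59 at 6 h, against -1.64, -1.70 and -1.66 at 1 h, a 9.55-fold rise with almost no spread in either group (SE 0.24, adjusted p = 8.75e-07). Stat2 rose 7.70-fold (4.71, 4.43 and 4.18 at 6 h, against 1.50, 1.86 and 1.12 at 1 h). Irf9, a DNA-binding partner of STAT proteins, rose 2.88-fold. Irf1 was higher by 1.26 and Irf8, a lineage factor of dendritic cells, by 0.88 (not called without the 6 h array of donor A). In contrast Jak1 differed by 0.18 (95% interval -0.17 to 0.53), Tyk2 by 0.58 (-0.21 to 1.36) and Irf3 by -0.35 (-0.66 to -0.045, adjusted p = 0.0667), and none of these 3 was called. Tyk2 was called with donor as a block (adjusted p = 0.0078). Of the 25 genes of interferon production, receptors, JAK, STAT and IRF, all of them tested, 11 were higher and 3 lower, and the list median was 0.52 (slide block 0.42, within slide 3 0.42). Stat2, Irf7 and Irf9 had 1 h means within 0.3 of their unstimulated means of 1.63, -1.85 and 1.22. With local backgrounds as deposited 6 of the list were higher, and Irf8 and Irf9 were not called.

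Antiviral effectors were higher almost throughout. Of 38 listed, 29 were on the array and 27 tested, and 23 were higher and 0 lower (21 at least 2-fold, median 2.18). The median was 2.14 with slide as a block and 2.22 within slide 3. Restricted to the 25 members above background on all 6 arrays, 21 were higher. Beyond the genes above, Ifit1 averaged 4.34 at 6 h and 0.80 at 1 h, and Bst2 (tetherin, which holds budding virions) averaged 2.09 at 6 h and -0.29 at 1 h. Among the 4 genes not called were Ifitm1, Ifitm2 and Ifi27.

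The interferon-induced GTPases, which act on the membranes around intracellular pathogens, rose further. Of 20 listed, 17 were tested and 15 were higher, and the median was 3.27 (slide block 3.32, within slide 3 3.28), and 11 of the 12 above background on all 6 arrays were higher. Tgtp1 had 3.38, 3.62 and 2.79 at 6 h, against -0.64, -1.21 and -0.66 at 1 h (log2 4.10), and was not called on its second brightest probe. Gbp3, a guanylate-binding protein, had 4.28, 4.65 and 4.14 at 6 h, against 0.20, 0.22 and 0.36 at 1 h (log2 4.10, SE 0.19). Irgm1 was higher by 3.82 and Ifi47 by 3.81. At 24 h these 4 genes averaged 0.80, 3.43, 1.16 and 2.54, each below its 6 h mean of 3.26, 4.36, 3.02 and 4.88.

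In the list of the ISG15 conjugation pathway, TRIM and PARP proteins, all 18 tested of 24 listed were higher (17 at least 2-fold, median 2.17, 2.16 with slide as a block and 2.03 within slide 3). ISG15 is a ubiquitin-like tag that is conjugated to proteins during the interferon response. Isg15 itself averaged 4.31 at 6 h and 1.90 at 1 h. Rnf213, a giant ubiquitin ligase, had 4.19, 4.32 and 3.98 at 6 h, against -0.20, -0.19 and 0.02 at 1 h, and its adjusted p of 8.35e-10 (SE 0.12, limma) was the smallest of the 15 largest rises. Parp12 (log2 3.15), Parp14 (2.98) and Trim30d (2.93) followed. With local backgrounds taken as deposited, 11 of the 18 were called.

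Most sensors of foreign nucleic acid and inflammasome genes were higher. Of 24 listed 17 were tested, and 12 were higher and 2 lower (median 1.77, 1.76 with slide as a block and 1.73 within slide 3). After Ifi209 came Ifi204 (log2 3.67), Dhx58 (LGP2, 3.58) and Ddx58 (RIG-I, 3.33). Ifih1 (MDA5) averaged 5.28 at 6 h and 2.94 at 1 h. The 2 lower genes were inflammasome parts, but other inflammasome genes were among the higher. Nlrp3, the sensor of the canonical inflammasome, had 0.88, 0.84 and 0.76 at 6 h, against 1.73, 1.96 and 1.56 at 1 h (log2 -0.92, adjusted p = 0.000136). Its adaptor Pycard (ASC) was lower by 0.75 (adjusted p = 0.0136), a call that ended with slide as a block, after median centring and without the 6 h array of donor B.

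Most tested genes of MHC class I presentation and of dendritic cell maturation were higher, and MHC class II genes hardly moved. Of 19 tested class I and peptide-loading genes (24 listed), 13 were higher and 1 lower (median 0.74, 0.90 with slide as a block and 0.88 within slide 3). Tap1, a subunit of the peptide transporter, had 2.77, 2.40 and 2.65 at 6 h, against 0.99, 0.18 and 0.74 at 1 h (log2 1.97, SE 0.25, adjusted p = 9.67e-05). H2-T22 was higher by 1.76, Tapbpl by 1.53 and H2-T24 by 1.51. The class I genes H2-D1 and H2-Q7 were among the 5 not called. The lower gene was Canx, a chaperone of the endoplasmic reticulum (-0.47), which was not called after median centring or on its second brightest probe. With local backgrounds as deposited 8 of the 19 were higher. Among 16 tested class II genes (18 listed) 1 was higher and 3 lower, against 12% higher and 16.2% lower among all genes. Ciita, the class II master regulator, was higher by 0.85 (adjusted p = 0.0363) but was not called with slide as a block, after median centring, without the 6 h array of donor A or C, or without the 1 h array of donor B. H2-Ab1 differed by -0.16 (95% interval -0.57 to 0.25), and this sign turned under several settings. Marchf1, the ligase that removes class II from the surface, was lower by 0.93, H2-DMa by 0.63 and Rfxank by 0.42, and none of these 3 was called after median centring. Rfxank was also not called with donor as a block (adjusted p = 0.0516), with slide as a block or when any array but the 1 h array of donor C was left out.

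Of 27 maturation and costimulation genes 25 were tested, and 14 were higher and 1 lower (median 0.85, 0.92 with slide as a block and 0.99 within slide 3). Il15 had 3.44, 3.74 and 2.63 at 6 h, against 0.98, 0.62 and 0.62 at 1 h (log2 2.53, SE 0.24). Il15ra, the chain that presents IL-15 to neighbouring lymphocytes, moved alongside it with 3.29, 3.53 and 2.76 at 6 h, against 0.92, 0.71 and 0.55 at 1 h (log2 2.47, SE 0.18). Ly75 (DEC-205, an antigen uptake receptor) was higher by 2.14. Tnfsf10 (TRAIL) averaged 1.83 at 6 h and -0.27 at 1 h, where no array was above background. Cd86, the costimulatory ligand of CD28, had 4.39, 4.52 and 3.88 at 6 h, against 2.63, 2.53 and 2.74 at 1 h (log2 1.63, adjusted p = 1.78e-05). With local backgrounds as deposited 6 of the list were higher, the median was 0.18, and Cd86 was not called. The lower gene was Tnfsf9 (4-1BB ligand), with 0.19, 0.34 and 0.12 at 6 h, against 2.63, 3.04 and 2.59 at 1 h. Ccr7, the lymph node homing receptor, differed by 0.32 (95% interval -0.28 to 0.91) and was not called. Cd40 is not analysed here.

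**Figure D4:**
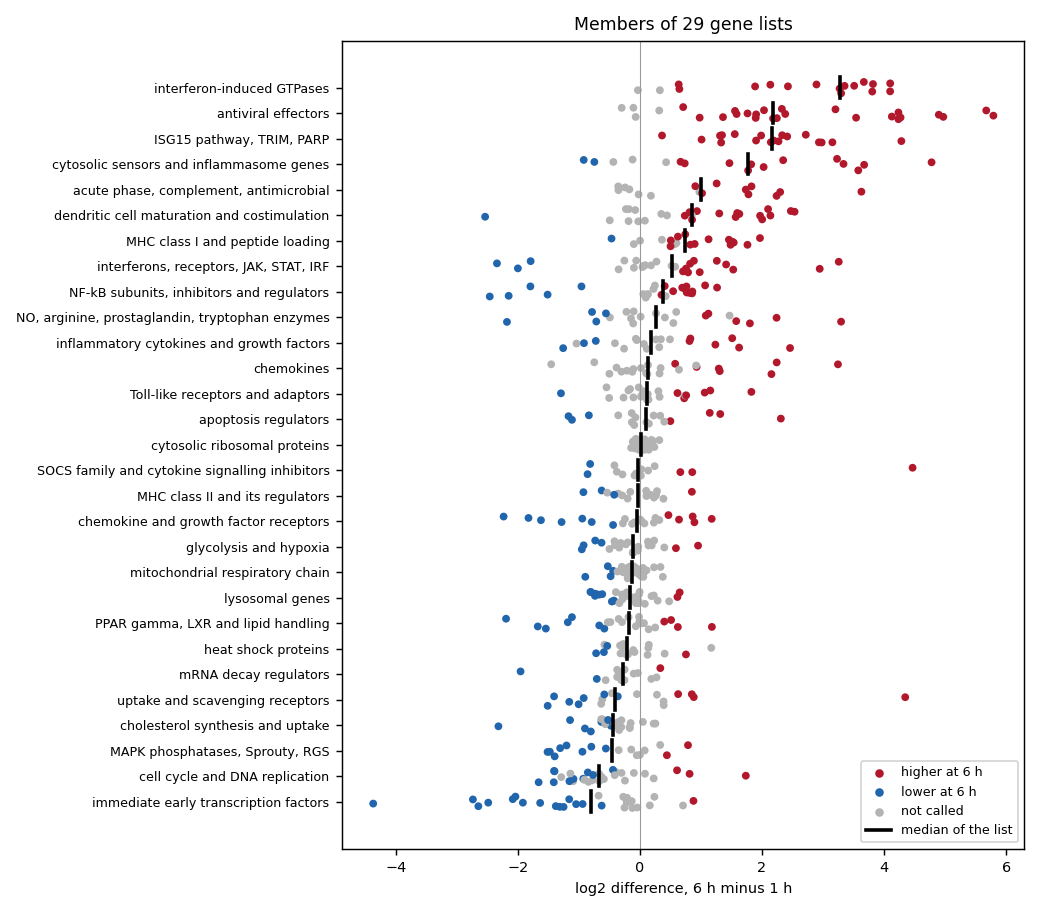
Log2 difference between 6 h and 1 h (x axis) for the tested members of 29 gene lists (rows, ordered by median). Each point is a gene, red where it was higher and blue where it was lower at an adjusted p of 0.05, and black bars are list medians, which run from 3.27 for the interferon-induced GTPases to -0.81 for the immediate early factors. The ribosomal proteins have no called member.

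The largest falls held immediate early genes beside genes that had been high before LPS. Egr1, a zinc finger factor induced within minutes by MAP kinase signalling, had -4.92, -4.50 and -5.14 at 6 h, against -0.28, -0.05 and -1.11 at 1 h. The fall was 20.7-fold (log2 -4.37, SE 0.25, adjusted p = 1.42e-07, limma), with -4.14 with slide as a block and -3.60 within slide 3. Errfi1, a feedback inhibitor of the EGF receptor, had -2.44, -2.99 and -2.56 at 6 h, against 0.96, 1.08 and 1.17 at 1 h (log2 -3.73, SE 0.17). At 0, 1, 6 and 24 h Egr1 averaged -4.29, -0.48, -4.85 and -4.78, and Errfi1 averaged -1.82, 1.07, -2.66 and -1.82. Both were thus raised at 1 h over unstimulated cells and back at or below that level by 6 h. The stress cytokine Gdf15 had a like course of means (-0.81, 2.68, -0.50 and -0.23 at 0, 1, 6 and 24 h), as had Nr4a1 (-3.56, -0.46, -3.11 and -2.48), Tnfsf9 (-0.34, 2.76, 0.22 and 0.07) and Ier2 (-3.40, -1.25, -3.74 and -3.10).

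Others in the 15 stood at 1 h close to their unstimulated level. Daglb, a diacylglycerol lipase that feeds eicosanoid synthesis, averaged 2.54, 2.41, -0.83 and -0.64 at 0, 1, 6 and 24 h. Aatk, a kinase, averaged 2.82, 2.58, -0.34 and 0.06, and Nfe2, a transcription factor of blood lineages, averaged 4.02, 3.85, 1.36 and 1.90. The 6 h spots of Aatk were well above background on 1 of 3 arrays. Cd244a (2B4), Asb4, Pald1, Tiam2 and Klf4 followed the same course, with 1 h means within 0.5 of those of unstimulated cells, and Slco4a1, a transporter, was higher at 1 h (3.08) than at 0 h (2.19). All 15 falls were called with slide as a block (log2 -2.06 to -4.14), and Asb4 and Ier2 were not called on their second brightest probes.

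Of 30 immediate early transcription factors 28 were tested, and 15 were lower and 1 higher (13 at least 2-fold lower, median -0.81, -0.74 with slide as a block and -0.86 within slide 3). Of the 26 above background on all 6 arrays, 14 were lower, and after median centring 11 were lower. Klf4 had -2.08, -1.70 and -2.85 at 6 h, against 0.86, 0.95 and -0.22 at 1 h (log2 -2.74, SE 0.31), with donor C lowest at both hours. Nr4a1 (Nur77), an orphan nuclear receptor, had -2.91, -3.20 and -3.22 at 6 h, against -0.31, -0.51 and -0.57 at 1 h (log2 -2.65, SE 0.24). Fos, a subunit of AP-1, averaged -3.97 at 6 h, where it was above background on no array, and -2.05 at 1 h, where it was on all 3. Its call ended with local backgrounds as deposited. Jun averaged -1.22 at 6 h and 0.16 at 1 h, and Junb 1.14 at 6 h and 2.46 at 1 h. The family did not move as a block: Atf3 averaged 4.39 at 6 h and 4.53 at 1 h and Fosb -1.43 at 6 h and -1.20 at 1 h, and neither was called. Klf10 was the higher member (-0.80, -0.48 and -0.95 at 6 h, against -1.58, -1.56 and -1.72 at 1 h).

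Feedback genes of MAP kinase signalling were mostly lower where called. Of 16 tested (21 listed) 8 were lower and 2 higher (median -0.46, -0.40 with slide as a block and -0.34 within slide 3). Dusp1, the phosphatase that switches off p38, had -0.26, 0.0038 and -0.23 at 6 h, against 1.26, 1.53 and 1.15 at 1 h (log2 -1.48, SE 0.18). Rgs2 was lower by 1.52, Dusp4 by 1.40 and Dusp2 by 1.31 (the last not called with slide as a block, after median centring, without the 6 h array of donor B or C, or without the 1 h array of donor A or C). Rgs14 and Spred1 were higher, by 0.79 and 0.44. Of 14 mRNA decay regulators 2 were lower and 1 higher, against 16.2% lower and 12% higher among all genes. Zfp36 (tristetraprolin, which destabilizes the mRNA of TNF and other cytokines) had -0.45, -0.22 and -0.49 at 6 h, against 1.68, 1.43 and 1.61 at 1 h (log2 -1.96, SE 0.16, adjusted p = 1.74e-06). Zfp36l1 was lower by 0.71 and Cnot6, a deadenylase subunit, higher by 0.33, and both calls were lost after median centring. That of Cnot6 was also lost with slide as a block, on its second brightest probe and when any of the 6 arrays was left out, and that of Zfp36l1 without the 6 h array of donor B or the 1 h array of donor A or C.

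NF-kB genes moved in both directions. Of 24 tested members (25 listed) 12 were higher and 5 lower (median 0.38, 0.43 with slide as a block and 0.49 within slide 3). The 5 lower genes encode IkB proteins or brakes on the pathway, but other IkB genes (Nfkbib, Nfkbie, Bcl3) were among the 12 higher. Nfkbiz, a nuclear IkB protein, had 2.19, 2.14 and 0.58 at 6 h, against 3.92, 4.37 and 4.00 at 1 h (log2 -2.46, SE 0.38). Nfkbid had 1.51, 1.38 and 1.69 at 6 h, against 3.60, 3.71 and 3.72 at 1 h (log2 -2.15, SE 0.15). Tnip3 was lower by 1.80, Tnfaip3 (A20, a ubiquitin editor) by 1.51 and Nfkbia (IkB alpha) by 0.96. Nfkbia was not called with slide as a block, after median centring, without the 6 h array of donor C, or without the 1 h array of donor A or B. All 5 averaged more at 6 h than in unstimulated cells, for example Tnfaip3 with 1.10, 4.95, 3.44 and 2.78 at 0, 1, 6 and 24 h. Among the higher genes Ikbke, a kinase of IRF3, rose by 1.26, Nfkb2 by 1.07, Birc2 by 0.86 and Traf1 by 0.85 (not called without the 6 h array of donor A). With local backgrounds as deposited, 2 of the 12 were called.

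The LPS receptor and its adaptors diverged. Tlr4 had -0.66, -0.24 and -0.62 at 6 h, against 0.30, 1.71 and 0.38 at 1 h, with donor B highest at both hours (log2 -1.30, SE 0.30, adjusted p = 0.00596, limma). Ly96 (MD-2) was higher by 1.15 and Cd14 differed by -0.51 (95% interval -1.20 to 0.18), without a call. Tlr1 was higher by 1.82, Irak3 (IRAK-M, a brake on the pathway) by 1.06 and Myd88 by 0.76. With local backgrounds as deposited Tlr1, Ly96 and Irak3 were not called and 1 gene of the list was higher, and Irak3 was also not called on its second brightest probe. In all 6 of 23 tested genes of this list (27 listed) were higher and 1 lower.

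Inflammatory cytokines did not move together. Il6 had 8.17, 8.43 and 7.02 at 6 h, against 7.39, 8.44 and 6.77 at 1 h, and Il1b had 8.08, 8.03 and 7.59 at 6 h, against 7.73, 8.45 and 7.69 at 1 h. The groups overlapped in both genes. The difference was 0.34 for Il6 (95% interval -0.71 to 1.39) and -0.054 for Il1b (-0.75 to 0.64), so changes of about 2-fold in Il6 lie within its interval. The donors differed more than the hours did, with donor C lowest for Il6 at both. Tnf had 5.19, 5.31 and 4.75 at 6 h, against 5.79, 6.00 and 5.64 at 1 h (log2 -0.73, SE 0.17, adjusted p = 0.00793), which was not called with slide as a block (adjusted p = 0.0568) or after median centring. Csf1 (macrophage colony-stimulating factor) was lower by 1.26 and Osm by 0.92, and Osm was not called with slide as a block, without the 6 h array of donor C or without the 1 h array of donor A. The higher members were led by Il33, an alarmin (0.81, 1.80 and 0.26 at 6 h, against -1.63, -1.18 and -1.68 at 1 h), Lta (1.62), Il18 (1.51) and Il12a, the p35 chain of IL-12 (1.23). Of 20 tested (25 listed) 6 were higher and 3 lower, and with donor as a block 7 were higher and 5 lower. With local backgrounds as deposited 2 were higher, and the list median was -0.24 against 0.19 in the main fit. Il23a differed by -1.04 (adjusted p = 0.17) and was called with donor as a block (adjusted p = 0.031). Il10 did not pass the filter on dim probes and Il12b is not analysed here.

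Of 23 tested chemokines (24 listed) 7 were higher and 0 lower (median 0.13, 0.18 with slide as a block and 0.39 within slide 3). Ccl5 (RANTES) had 6.80, 6.95 and 6.31 at 6 h, against 3.44, 3.95 and 2.94 at 1 h, a 9.47-fold rise (adjusted p = 8.72e-06, limma). Cxcl10, an interferon-induced attractant of T cells, had 6.41, 7.12 and 5.54 at 6 h, against 3.86, 4.60 and 3.89 at 1 h (log2 2.24, SE 0.49). It averaged -1.19, 4.12, 6.36 and 2.48 at 0, 1, 6 and 24 h, so on the log2 scale most of its rise over unstimulated cells had come by 1 h. Cxcl3 was higher by 2.15 (not called without the 6 h array of donor B or the 1 h array of donor A) and Cxcl16 by 1.31. Cxcl10, Cxcl3 and Cxcl16 were not called with local backgrounds as deposited. Cxcl1 had 0.14, 1.53 and -1.80 at 6 h, against 0.44, 1.14 and 0.54 at 1 h, and the groups overlapped. Cxcl2 differed by -1.46 (adjusted p = 0.137) and was called with donor as a block (adjusted p = 0.0307).

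Among chemokine and growth factor receptors 5 of 22 tested (25 listed) were higher and 7 lower. Cxcr2, the neutrophil receptor for CXCL1 and CXCL2, was lower by 2.24, Ccrl2 by 1.83, Ccr2 by 1.62 and Il1r2, a decoy receptor for IL-1, by 1.29. Cxcr2, Ccr2 and Il1r2 were not called after median centring, Cxcr2 also not without the 6 h array of donor A or B or the 1 h array of donor C, and Il1r2 not with slide as a block or without the 6 h array of donor A or B or the 1 h array of donor A or C. Tnfrsf1b (TNF receptor 2) was higher by 1.17 (not called on its second brightest probe or with local backgrounds as deposited), Cxcr5 by 0.86 and Il10rb by 0.64, which was not called without the same single arrays as Il1r2 or with local backgrounds as deposited. Csf3r averaged 1.11 at 6 h and 0.22 at 1 h, where no array was above background, and was not called with local backgrounds as deposited. In the SOCS list Usp18, Socs1 (0.86) and Ptpn6 (0.66) were higher and Socs6 and Socs5 lower (by 0.86 and 0.82, neither called after median centring), of 14 tested. Among all genes 12% were higher and 16.2% lower. Ptpn6 was not called on its second brightest probe, or without the 6 h array of donor A or B or the 1 h array of donor B or C, and Socs6 not with slide as a block or without the 6 h array of donor A or B or the 1 h array of donor B. Socs3 differed by -0.38 (95% interval -0.76 to -0.0063, adjusted p = 0.103).

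Enzymes of inflammatory mediators changed in both directions. Hdc, which makes histamine, had 5.18, 5.23 and 5.01 at 6 h, against 1.51, 2.60 and 1.43 at 1 h (9.81-fold, adjusted p = 1.68e-06, limma). Nos2, the inducible nitric oxide synthase, had 3.57, 4.07 and 3.17 at 6 h, against 1.31, 1.86 and 0.93 at 1 h (log2 2.24, SE 0.27), and was not called with local backgrounds as deposited. Ptges, the inducible prostaglandin E synthase, was higher by 1.80 and Sod2 by 1.58, whereas Ptgs1 (COX-1) was lower by 2.18, with -1.44, -1.62 and -0.95 at 6 h, against 0.74, 0.38 and 1.41 at 1 h. Ptgs2 (COX-2) had 2.88, 3.47 and 0.89 at 6 h, against 0.49, 1.20 and 1.15 at 1 h, and donor C at 6 h lay among the 1 h values (adjusted p = 0.0774). Ptgs2 was called when that array was left out, the only change of this call among the 6 arrays. The leukotriene genes Alox5 and Alox5ap were lower by 0.79 and 0.56 and Odc1 by 0.72, calls that ended after median centring, that of Alox5ap also with slide as a block, and that of Odc1 also without the 6 h array of donor A or B or the 1 h array of donor A or C. Of 21 tested genes of this list 6 were higher and 4 lower.

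Acute phase, complement and antimicrobial genes gave 9 higher and 0 lower of 16 tested (21 listed), and the list median was 0.99 (slide block 0.93, within slide 3 0.76). Cfb, factor B of the alternative complement pathway, had 4.83, 4.94 and 4.42 at 6 h, against 1.11, 0.97 and 1.23 at 1 h (log2 3.63, SE 0.21). Slpi (2.30), Saa3 (2.24) and Lcn2, which binds bacterial iron carriers (1.83), followed. Cfb, Saa3 and Lcn2 had higher means at 24 h (5.55, 2.88 and 2.79) than at 6 h (4.73, 0.09 and 1.65).

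Uptake receptors were lower in 7 and higher in 4 of 18 tested (24 listed), with 2 of the 7 called after median centring. Clec10a, a galactose lectin of IL-4-conditioned cells, had 5.89, 5.71 and 5.67 at 6 h, against 7.06, 7.77 and 6.98 at 1 h (log2 -1.51, SE 0.30), and was not called on the scanner software's processed signals. Fcgr2b, the inhibitory Fc receptor, was lower by 1.41, Mrc1, the mannose receptor, by 1.16 and Stab1 by 1.01, and the first 2 of these were not called after median centring. Beside Marco, Mertk was higher by 0.88, Fcgr4 by 0.85 and Axl by 0.62, the last not called with slide as a block or when any array but the 1 h array of donor C was left out. Mrc1 lost its call with slide as a block, and without the 6 h array of donor A or C or the 1 h array of donor B.

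Most lipid genes were not called, and those that were included more lower than higher ones. Of 23 tested genes of cholesterol synthesis and uptake (25 listed) 7 were lower and 0 higher (median -0.44, -0.62 with slide as a block and -0.86 within slide 3), and 1 was lower after median centring. Dhcr7, which makes the last step to cholesterol, had -1.78, -1.87 and -1.42 at 6 h, against 0.64, 0.30 and 0.96 at 1 h (log2 -2.32, SE 0.26). Sqle (-1.15) and Stard4 (-0.81) were not called after median centring, nor Stard4 on its second brightest probe. Pparg, the nuclear receptor of lipid storage, had 0.56, 0.63 and 0.52 at 6 h, against 2.01, 2.30 and 2.04 at 1 h (log2 -1.54, SE 0.14, adjusted p = 5.74e-06). Its partner Rxra was lower by 1.18 (not called on its second brightest probe), Scd2 by 2.20 and Fasn by 1.68 (Scd2 and Fasn not after median centring), and Nr1h3 (LXR alpha) was higher by 1.18. In the list of PPAR gamma, LXR and lipid handling 7 of 23 tested (25 listed) were lower and 4 higher. The smaller rises there were Mylip (0.62, not called after median centring), Abcg1 (0.51) and Plin2 (0.40), and Abcg1 (also not with slide as a block) and Plin2 were not called on the Cy5 channel alone, or without the 6 h array of donor A or B or the 1 h array of donor A or C.

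Cell cycle genes were lower in 11 and higher in 3 of 33 tested (35 listed), and the list median was -0.67 (slide block -0.999, within slide 3 -1.57), and 16 were lower with donor as a block. After median centring 0 were lower (at the same adjusted p) and the median was -0.44. Cdc20, which drives exit from mitosis, had -3.73, -4.39 and -2.32 at 6 h, against -1.67, -2.62 and -1.16 at 1 h, with donor C highest and donor B lowest at both hours. Rrm2 (-1.41), Mcm6 (-1.41) and Ccna2 (-1.40) showed the same order of donors. Ccnd2, a cyclin of the start of the cycle, was higher by 1.73 (5.13, 4.70 and 5.04 at 6 h, against 3.35, 3.01 and 3.30 at 1 h), as were Tyms (0.81) and Ccnd1 (0.61, not called with slide as a block, without the 6 h array of donor B or C, or without the 1 h array of donor A or B). Ccna2 lost its call without the 6 h array of donor A or B or the 1 h array of donor A or C, and Cdc20 without the same arrays.

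Housekeeping lists held no called member that changed 2-fold, and their counts stand against 12% higher and 16.2% lower among all genes. Of 40 tested cytosolic ribosomal protein genes 0 were called (limma), with a median of 0.014, differences of -0.15 to 0.32, and 1 higher gene after median centring. Of 30 respiratory chain genes 4 were lower (Ndufs7 by 0.90, Ndufs1 by 0.53, Uqcrc1 by 0.48 and Ndufa8 by 0.44), and 0 were after median centring. Of 23 glycolysis and hypoxia genes 2 were higher (Pfkfb3 by 0.95 and Hif1a by 0.59) and 4 lower (Slc2a1, the glucose transporter GLUT1, by 0.95, Bnip3 by 0.92, Slc16a3 by 0.73 and Gpi1 by 0.63), and none of these 4 was called after median centring. Of 30 lysosomal genes 8 were lower, among them Atp6v0d2 and Gusb (by 0.81 and 0.73), and 2 higher, Npc2 (0.65) and Lamp2 (0.61), and 0 were lower after median centring. Of 18 heat shock genes 1 was higher (Dnaja1, 0.75) and 3 lower (Hspd1, Dnajb4 and Dnajb9, by 0.72, 0.59 and 0.54), and none of these 3 was called after median centring. Among these small changes, Ndufa8, Uqcrc1, Hif1a, Bnip3, Slc16a3, Gpi1, Slc2a1, Gusb, Npc2, Hspd1 and Dnajb4 each lost the call when at least 1 of the 6 arrays was left out in turn. The share of lower genes was near that of all genes in the respiratory, glycolysis and heat shock lists and above it in the lysosomal list, a difference not tested. Slc2a1, Gpi1, Hspd1, Dnajb4 and Dnajb9 were not called with slide as a block, and Pfkfb3, Hspd1 and Dnajb4 not on their second brightest probes. The medians of the respiratory, glycolytic, lysosomal and heat shock lists lay between -0.21 and -0.12 and turned positive after median centring, as did the smaller negative medians of the receptor, SOCS and class II lists.

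Apoptosis regulators gave 4 higher and 3 lower of 17 tested (23 listed), against 12% higher and 16.2% lower among all genes. Daxx was higher by 2.31, the death receptor Fas by 1.31 and the BH3-only gene Bid by 0.50. Bcl2l11 (BIM) and Pmaip1 (NOXA), also BH3-only genes, were lower by 1.17 (Bcl2l11 not called on its second brightest probe) and 1.12. Bbc3, another BH3-only gene, was not called. Bcl2 was lower by 0.84, but was not called with slide as a block, without the 6 h array of donor C or without the 1 h array of donor B. Bid lost its call without the 6 h array of donor A or B. Bcl2l11 and Pmaip1 had both been raised at 1 h: Bcl2l11 averaged 0.44, 1.78, 0.61 and -0.37 at 0, 1, 6 and 24 h.

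For 101 genes the flag for signal above background separated the hours fully. Of these, 58 were above background on no 1 h array and on all 3 at 6 h, and 43 the other way round, beside 9624 genes above background on all 6 arrays. Beside Hamp the 58 held Iigp1, an interferon-induced GTPase (means of 2.50 at 6 h and -1.17 at 1 h), Thbs4, a matrix protein (3.82 at 6 h and 0.19 at 1 h) and Gbp6 (3.01 at 6 h and -0.34 at 1 h). These 3 were singled out after their values were seen and are among the largest differences of the 58. Crossing the flag is no test of a difference, and some of the 101 genes were not called, for example Ksr1 (log2 0.14) and Gabrg3 (-0.17).

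Some markers of other cells that such a culture can hold were called, against 12% higher and 16.2% lower among all genes. The marker lists are small, and their shares were not tested against that of all genes. Of 9 tested neutrophil markers Csf3r was higher and Cxcr2 and Mmp9 lower, and the mean level of the list was 0.87 to 1.45 over the 6 h arrays and 1.53 to 1.93 over the 1 h arrays. Elane, Camp and Retnlg, also neutrophil markers, did not pass the filter on dim probes. The small fall of Mmp9 (-0.46) turned positive with local backgrounds as deposited. For 8 tested macrophage or monocyte markers the mean level was 1.41 to 1.54 at 6 h and 1.68 to 1.93 at 1 h, with 2 lower, Ccr2 among them, and Mertk higher. Eosinophil markers had 2 lower of 4 tested (Siglecf by 0.89 and Ear1 by 0.68), neither called with slide as a block, and Ear1 turned positive on the scanner software's processed signals. The plasmacytoid list gave Bst2 (2.38) and Tcf4 (0.97) higher and Lair1 (-2.41) lower of 7. Mitf (0.74, mast cells), Lck (1.50, T cells), Cd34 (0.97, progenitors) and Pdgfrb (1.18, stroma) were higher. Il4 (-0.59, basophils), Cd5 (-0.62, T cells, positive with local backgrounds as deposited), Tfrc (-1.18, erythroid), Vwf (-0.88, megakaryocytes), Mycn (-1.96, progenitors) and Pecam1 (-0.68, stroma) were lower. B cell (3 tested) and natural killer cell (1 tested) markers had no call. Mitf, Il4, Vwf and Mmp9 were not called with slide as a block. Of these smaller changes Mmp9, Siglecf, Ear1, Mitf, Il4, Cd5, Tfrc and Vwf lost the call when at least 1 of the 6 arrays was left out in turn. The part of these cells in the results above was not tested.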

How the data were processed

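Total RNA of 12 cultures (3 each at 0, 1, 6 and 24 h) was measured on 2-colour Agilent arrays. Spot and background intensity values were deposited as written by Agilent Feature Extraction 10.7.3.1 (protocol GE2_107_Sep09), per the file headers, with the sample in Cy5 and the reference in Cy3, per the labels. The authors also deposited a table of log2 ratios, made with limma per the submitters' processing notes. The version and steps are not stated in those notes. Set against the ratios computed here it had the same scale and direction (r of at least 0.999 on each array) and column medians of 0.0051 to 0.0098.

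Median intensities were corrected with normexp (offset 50), with outlier local backgrounds replaced by the array's median background, because on the 6 h array of donor B a spot fell to -71631 after plain subtraction. Loess (span 0.3) was run within each array, with weight 0 for 1639 control spots, in R 4.3.3 with limma 3.58.1 (jsonlite 2.0.0 for the labels). A probe was kept where, in 1 or more of the 4 groups, its Cy5 signal was well above background on each of the 3 arrays, and each gene took its brightest kept probe. Of 41174 probes 22951 had a symbol, and 21750 probes and 11095 genes were kept. All 12 arrays entered 1 fit (lmFit, eBayes, 8 residual degrees of freedom), and the contrast was 6 h minus 1 h, adjusted over all genes. Of these steps only the fit was tried on simulated data, drawn as normalized values with known differences and without slide or donor effects. Array number limits the precision.

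The comparison, its members and the gene lists were chosen with earlier results of these data known. Named were the 15 largest rises and falls, up to 4 called members of each functional list in either direction, the called members of the marker lists where 1 or 2 passed in a direction, and a fixed set of pathway genes. Other listed genes given with means were chosen after their values were seen. Ddx58 stands for the listed Rigi. A probe above background on no array of a group has only a bound there, so its means are given without a fold. Hamp is an exception: its log2 difference of 4.31 is given because it was ranked among the 15 largest rises. Ksr1 and Gabrg3 are others, given with a log2 difference as examples of genes not called. The labels' donor letters were taken to pair the samples, and whether a letter is 1 mouse or a pool is not stated. Deviations of same-letter arrays correlated at 0.208, 0.545 and 0.553 for A, B and C, and those of other letters at -0.529 to 0.212. The value for A lay within the range of the other letters, so these values do not settle the pairing. Promoters were taken from RefSeq (GRCm38.p6) for 8972 of the 11095 genes. Some genes that this rule names are not reported here. Alternatives are given in the closing section.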

Additional observations from a re-analysis of the deposited data

How the results depend on the processing

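Of 196 named genes that were called, 195 kept the call with the authors' value table, 195 with donor as a replicate block, 168 with slide as a block, 166 on the Cy5 channel alone, 174 on the scanner software's processed signals, 138 after median centring and 132 with local backgrounds as deposited. With donor as a block 1435 genes were higher and 2024 lower, Rfxank lost its call, Tyk2, Il23a and Cxcl2 gained one, and no other named call changed. Median centring gave 246 lower genes, and 720 at least 2-fold higher and 171 at least 2-fold lower. Backgrounds as deposited gave 636 higher and 743 lower genes, with 270 at least 2-fold higher, and processed signals gave 672 at least 2-fold higher and 641 at least 2-fold lower. The cause of these shifts was not tested. Leaving out 1 array at a time gave 957 to 1306 higher and 1126 to 1811 lower genes, the fewest in each direction without the 6 h array of donor A, 22 to 24 higher antiviral effectors and 14 to 15 lower immediate early factors. Without the 6 h array of donor C 515 genes were at least 2-fold lower. Restricting the test to genes above background on all 6 arrays, or leaving out spots beside outlier backgrounds, both chosen after seeing the data, gave 1234 and 1274 higher and 1703 and 1711 lower genes. Signs turned for genes without a call: H2-Ab1 (0.21 after median centring, 0.23 on Cy5 alone, 0.11 with slide as a block), Il1b (0.32, 0.36 and 0.19 under the same 3 settings, and -0.19 to 0.19 leaving out an array), Il6 (-0.66 with backgrounds as deposited, and -0.042 to 0.79 leaving out an array), Ccr7 (-0.47 with backgrounds as deposited) and Cxcl1 (-1.54 to 0.13 leaving out an array). They also turned for the called genes Cd5 (0.065) and Mmp9 (0.11) with backgrounds as deposited and Ear1 (0.057) on processed signals. Dim probes limit low genes: 9624 of 11095 were above background on all 6 arrays.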

Other observations

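Of 6646 kept probes without a gene name, 796 were higher and 656 lower at 6 h (limma, adjusted over all kept probes). Among 3298 genes with several kept probes, 2 had probes called in opposite directions.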
